A study of Homo sapiens with 2 samples.

Results

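The Wnt ligands, their Frizzled receptors with the co-receptors LRP5 and LRP6, and the secreted antagonists of the SFRP, DKK and WIF1 families were read as 41 genes on the arrays of SBC-3 cells. A probe was counted for a gene when the RefSeq accession it was designed on belonged to that gene, which gave 46 probes on 103 spots, of 24824 probes of 19061 named genes in all. The 41 genes comprised 19 ligands, 12 receptors and co-receptors, and 10 antagonists.

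Wnt ligands are secreted, lipid-modified glycoproteins that bind a Frizzled receptor, and in the canonical branch an LRP5 or LRP6 co-receptor as well, upon which the complex that destroys β-catenin is held back and β-catenin acts with TCF and LEF factors on target genes. SFRP proteins, FRZB and WIF1 bind the ligands outside the cell, and DKK1, DKK2 and DKK4 bind LRP5 and LRP6. In lung, the pathway is known for its part in branching of the embryonic airways and in renewal of the alveolar epithelium.

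SBC-3 is an adherent small-cell lung cancer (SCLC) cell line, and both cultures were transfected, one with #1 siHOTAIR, which targets the long noncoding RNA HOTAIR, and the other with the control siRNA siGFP, which targets green fluorescent protein. The comparison asked which transcripts differed after depletion of HOTAIR. Each RNA was hybridized to 1 one-colour Agilent array, so each condition had 1 array and no replicate, no P-value was computed, and the siRNA, the culture and the array cannot be told apart. The time from transfection to RNA extraction for the arrays was not given in the sources used here. The antisense strand of #1 siHOTAIR is shown from 5′ to 3′, since it defines the treated array, with its seed (bases 2 to 8) in capitals.
#1 siHOTAIR antisense strand: uCUCUCUGuacucccguucuu

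HOTAIR, the target, was read from 1 spot with a processed signal of 108 with #1 siHOTAIR and 244 with siGFP, a log2 ratio of -1.22 ± 0.21, or 57.2% lower. The error given with a log2 ratio here is the SD expected from repeated spots within an array, which covers measurement error and says nothing of the spread between cultures. All log2 ratios are #1 siHOTAIR over siGFP after each array was set to its 75th percentile (650 and 630), while signals are given as deposited. The 10-spot probe of ACTB and the 9-spot probe of GAPDH, which serve as references, had log2 ratios of -0.05 and 0.00. Each array held 58717 spots that were not controls, of which 55.5% and 58.3% were well above background by the scanner software, and 0 were saturated. Of the neuroendocrine SCLC markers reported here, NEUROD1 and DLL3 were well above background on both arrays, CHGA and NCAM1 on a single array, and INSM1 and SYP on neither. YAP1 was above background on both arrays and POU2F3 on neither, and of 4 epithelial markers KRT8 and KRT18 were on both, EPCAM on a single array and CDH1 on neither. Of markers of other cells, 2 of 5 fibroblast (40%), 3 of 5 leukocyte (60%) and 1 of 4 endothelial genes (25%) were above background on both arrays. The share over all named genes was 63.1%, so these counts are no result about other cells.

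Few ligands and antagonists were detected, and most receptors were. A gene was called measured when at least 50% of the spots of a probe were well above background. Of the 41 genes, 16 (39.0%) were measured on both arrays, 2 on a single array and 23 on neither, against 12031 (63.1%), 983 and 6047 of the 19061 named genes. The share measured on both arrays was 4 of 19 ligands (21.1%), 10 of 12 receptors and co-receptors (83.3%) and 2 of 10 antagonists (20.0%). The measured ligands were WNT3, WNT3A, WNT6 and WNT10B. The measured receptors were FZD1, FZD2, FZD3, FZD4, FZD5, FZD6, FZD7, FZD9, LRP5 and LRP6, and the measured antagonists were SFRP1 and DKK3. A gene not well above background is not shown to be absent, only to lie under what these probes could detect.

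**Figure D1:**
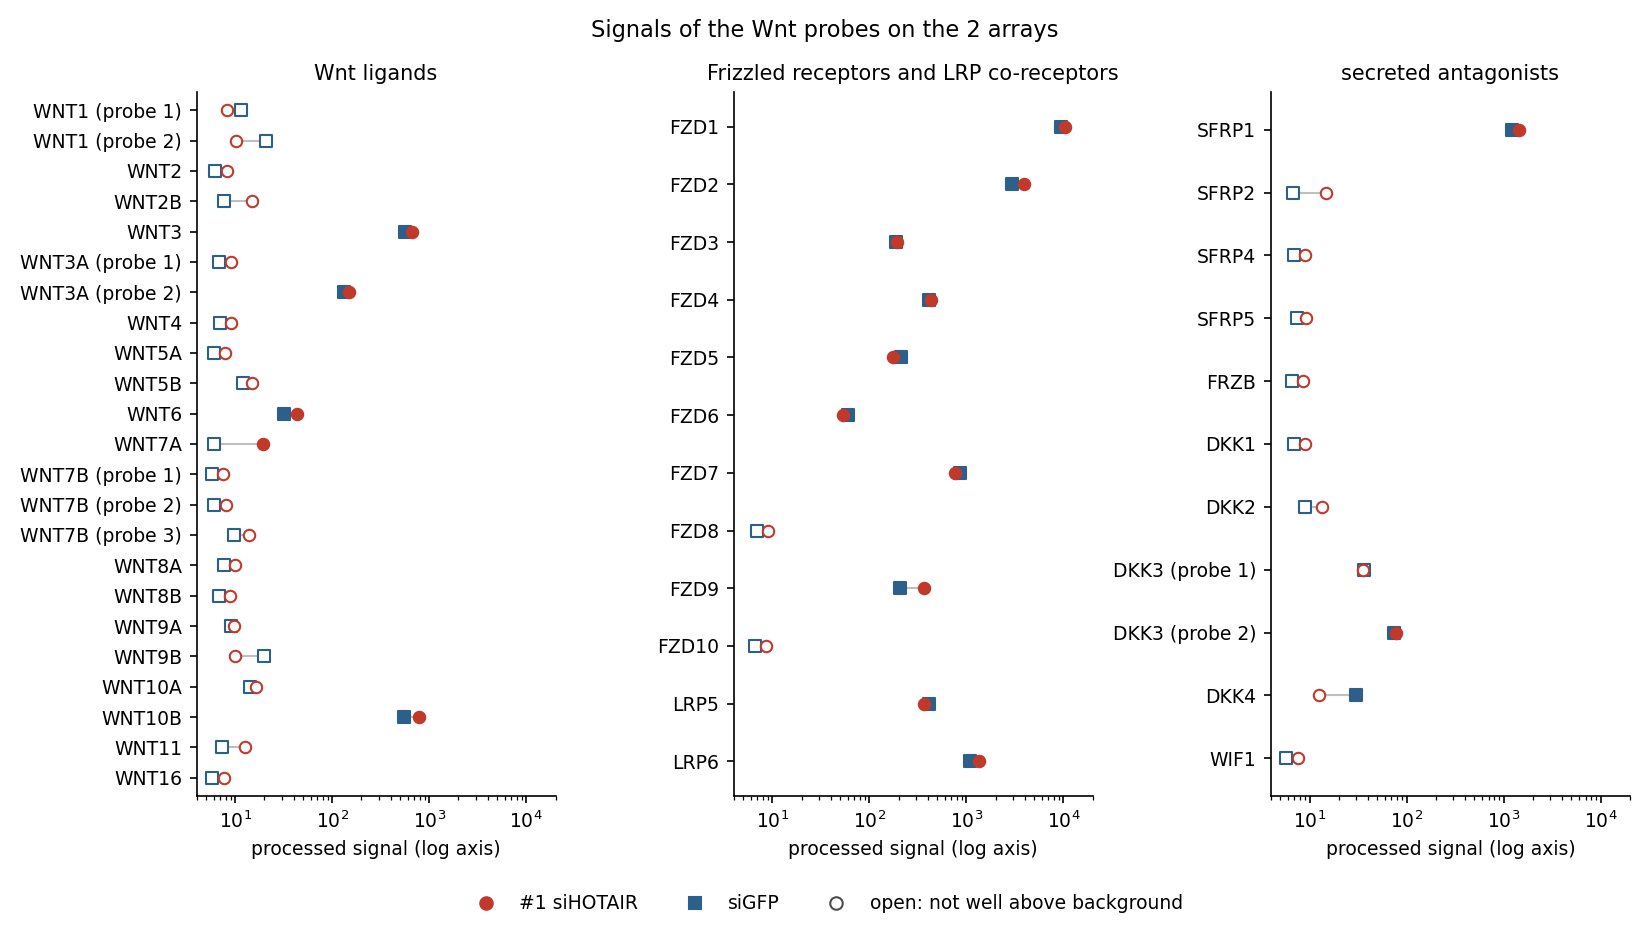
Processed signal (log axis) of every Wnt probe with #1 siHOTAIR (circles) and siGFP (squares), by class of gene, with open symbols where the probe was not well above background. Filled symbols stand for most receptors and for 4 ligands and 2 antagonists on both arrays, and for WNT7A and DKK4 on 1 array only.

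The ligands not measured on either array were WNT1, WNT2, WNT2B, WNT4, WNT5A, WNT5B, WNT7B, WNT8A, WNT8B, WNT9A, WNT9B, WNT10A, WNT11 and WNT16. The receptors not measured were FZD8 and FZD10. The antagonists not measured were SFRP2, SFRP4, SFRP5, FRZB, DKK1, DKK2 and WIF1. The 26 probes of these 23 genes had signals from 7.53 to 16.3 (median 9.10) with #1 siHOTAIR and from 5.73 to 20.8 (median 7.0) with siGFP, so the 2 ranges overlapped. WIF1 was at 7.53 with #1 siHOTAIR and 5.73 with siGFP, WNT10A at 16.3 and 14.1, and 1 of the 2 probes of WNT1 at 10.2 and 20.8. For comparison, the lowest signal of any spot that was well above background was 37.3 with #1 siHOTAIR and 28.6 with siGFP. Ratios between signals of this size are not given.

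The 4 measured ligands each lay beside an unmeasured one in the genome. In the GRCh38.p14 annotation, WNT3 neighbours WNT9B on chromosome 17, WNT6 neighbours WNT10A on chromosome 2 and WNT10B neighbours WNT1 on chromosome 12, with 0 coding genes between them, and WNT3A and WNT9A on chromosome 1 have 1 between them. In each pair the first was above background on both arrays and the second on neither. This is a description of 4 pairs, with no test. The 150 bases before the start site are shown for the 3 pairs of which both genes had an entry in the RefSeq promoter table (GRCh38.p14), and for FZD9, the receptor with the highest ratio, each read 5′ to 3′ on the strand of the gene, with CG dinucleotides in capitals.
WNT3, chr17:46818693-46818842, minus strand: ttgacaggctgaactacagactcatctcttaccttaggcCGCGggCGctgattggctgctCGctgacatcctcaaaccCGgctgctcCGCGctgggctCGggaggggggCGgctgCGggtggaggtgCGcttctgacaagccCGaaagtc
WNT9B, chr17:46851433-46851582, plus strand: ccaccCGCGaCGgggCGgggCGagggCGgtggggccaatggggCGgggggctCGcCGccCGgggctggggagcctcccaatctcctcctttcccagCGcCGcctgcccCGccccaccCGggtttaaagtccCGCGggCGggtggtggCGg
WNT6, chr2:218859655-218859804, plus strand: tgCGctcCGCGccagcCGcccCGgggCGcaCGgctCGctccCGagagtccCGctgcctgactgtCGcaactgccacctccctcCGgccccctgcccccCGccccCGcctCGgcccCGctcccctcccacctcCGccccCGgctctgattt
WNT10A, chr2:218880702-218880851, plus strand: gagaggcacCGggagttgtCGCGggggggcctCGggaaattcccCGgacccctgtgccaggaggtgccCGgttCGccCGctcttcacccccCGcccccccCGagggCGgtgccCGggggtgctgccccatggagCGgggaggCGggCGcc
WNT3A, chr1:228006848-228006997, plus strand: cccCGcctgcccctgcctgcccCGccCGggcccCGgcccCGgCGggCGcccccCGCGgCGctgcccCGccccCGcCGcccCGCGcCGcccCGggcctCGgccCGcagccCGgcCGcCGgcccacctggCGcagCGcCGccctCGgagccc
WNT9A, chr1:227947933-227948082, minus strand: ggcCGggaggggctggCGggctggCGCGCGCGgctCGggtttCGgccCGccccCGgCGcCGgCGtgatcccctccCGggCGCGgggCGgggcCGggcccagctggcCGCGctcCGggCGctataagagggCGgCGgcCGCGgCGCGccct
FZD9, chr7:73433628-73433777, plus strand: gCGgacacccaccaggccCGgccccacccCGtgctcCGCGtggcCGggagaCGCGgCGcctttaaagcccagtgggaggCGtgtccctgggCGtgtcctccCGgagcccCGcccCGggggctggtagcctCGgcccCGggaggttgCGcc
The window of WNT3 held 12 CG dinucleotides and that of its unmeasured neighbour WNT9B 18. WNT6 had 18 and WNT10A 15. WNT3A had 26 and WNT9A 28. FZD9 had 17, against a median of 7 over the 35116 windows of this length in the table, of which 20.7% held at least as many. In these 3 pairs, the windows of measured and unmeasured ligands all held more than that median. The 12 of WNT3 were reached by 36.9% of all windows. The starts tabulated for WNT9B and WNT10A lie inside the annotated span of their genes, so another start lies further out. An entry was found for 28 of the 41 genes, too few to compare measured with unmeasured members. WNT7B, WNT10B, WNT11, FZD2, FZD3, FZD6, FZD7, FZD10, LRP6, SFRP1, DKK2, DKK3 and DKK4 had none.

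No Wnt gene of the 16 measured on both arrays differed by 2-fold, the threshold of the study's methods. Of all 12031 named genes measured on both arrays, 1.4% were at least 2-fold higher and 1.48% at least 2-fold lower in #1 siHOTAIR cells. At 1.5-fold, 1 of the 16, FZD9, was higher and 0 were lower, where 6.82% of named genes were higher and 5.95% lower. The members' median log2 ratio was 0.12 against 0.03 for all named genes, with 10 members above 0 and 6 below. Log2 ratios ran from -0.32 for FZD5 to 0.79 for FZD9, while the 5th and 95th percentiles of the named genes were -0.64 and 0.66. A count of 1 in 16 is close to that background and is no result about the Wnt genes as a group. In RNA from whole cultures, fewer cells that express a gene and less RNA per cell cannot be told apart.

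**Figure D2:**
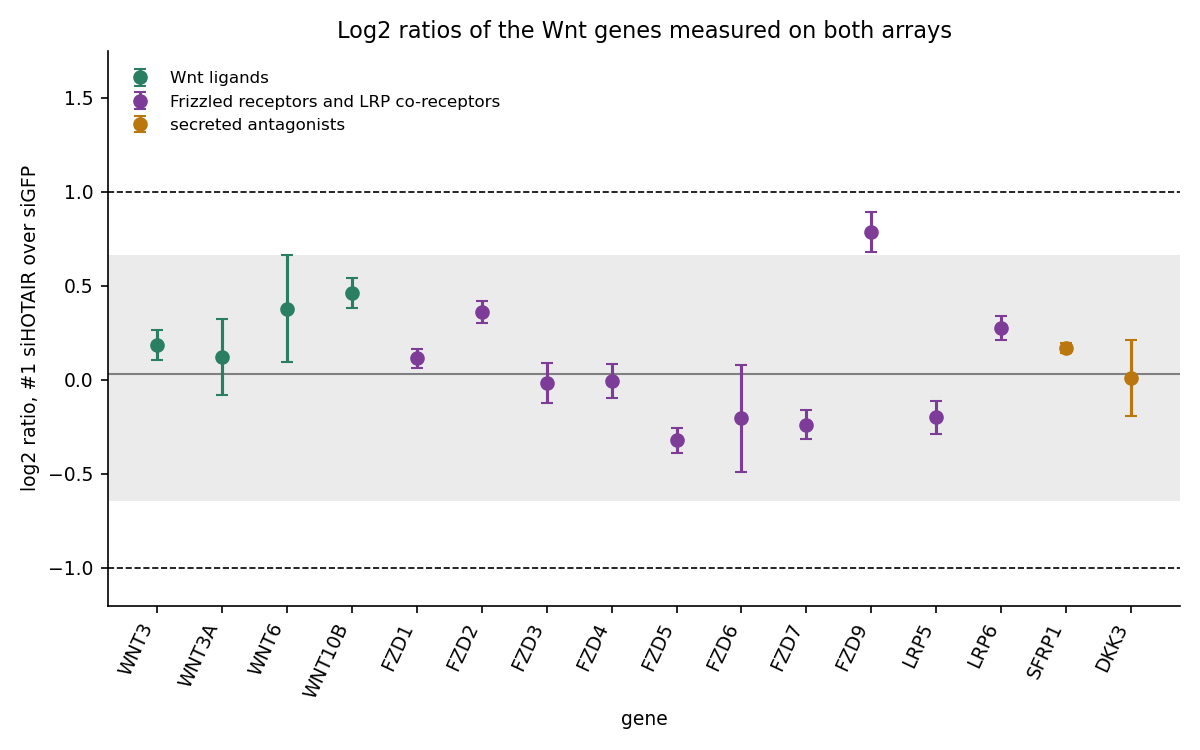
Log2 ratio (#1 siHOTAIR over siGFP) of the 16 Wnt genes measured on both arrays, by class. Bars are ± 1 SD expected from repeated spots within an array, the grey band spans the 5th to 95th percentile of all named genes (-0.64 to 0.66), the grey line is their median (0.03) and dashed lines mark 2-fold. FZD9, at 0.79, lies above the band and no gene reaches 2-fold.

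All 4 measured ligands had ratios above 0, with a median of 0.28. Of the 12031 named genes measured on both arrays, 6494 lay above 0 and 5537 below, with a median of 0.03. A count of 4 genes is no result about the ligands as a class. WNT10B, a ligand of the canonical branch known for holding back fat cell formation, gave 806 and 773 at its 2 spots with #1 siHOTAIR and 562 and 546 with siGFP. Both spots were higher in #1 siHOTAIR cells, and the spots of the arrays did not overlap. The log2 ratio was 0.46 ± 0.08, or 1.38-fold, and 20.0% of named genes lay as far from 0. WNT6, known in epithelial development, was read from 1 spot at 42.8 and 31.9, just above background, with a log2 ratio of 0.38 ± 0.28. WNT3, a canonical ligand of stem cell niches, gave 696 and 635 at its spots with #1 siHOTAIR and 596 and 538 with siGFP, again without overlap. Its log2 ratio was 0.18 ± 0.08. For WNT3A, the ligand most often used to switch on β-catenin signalling in culture, 1 probe was measured, at 132 and 165 against 125 and 138. The spots overlapped, and the log2 ratio of 0.12 ± 0.20 was within its measurement error. The other WNT3A probe was not well above background on either array, at 8.96 and 6.81, so the measured level rests on 1 of 2 probes.

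The receptors and co-receptors spread to both sides, 4 above 0 and 6 below, with a median log2 ratio of -0.01. FZD9, a Frizzled receptor known for roles in bone and the nervous system and reported to transmit WNT7A signals in lung cancer cells, gave 359 and 373 at its 2 spots with #1 siHOTAIR and 207 and 204 with siGFP. The spots of the arrays were far apart and did not overlap, and they lay in rows 75 and 367 of the 384 rows of the array. The log2 ratio was 0.79 ± 0.11, or 1.73-fold, and 6.10% of all named genes lay as far from 0. Without background correction it was 0.53. FZD2 gave 4225 and 3617 against 2936 and 2961, higher at both spots without overlap, with a log2 ratio of 0.36 ± 0.06. The ratios of its 2 spots were 0.48 and 0.24. LRP6, the co-receptor whose phosphorylated tail takes up axin, gave 1306 and 1415 against 1096 and 1081, with a log2 ratio of 0.28 ± 0.06. FZD1 gave 10458 and 10461 against 9426 and 9295, with a log2 ratio of 0.11 ± 0.05. The spots of both genes were higher in #1 siHOTAIR cells without overlap, though after scaling the ratios are small.

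FZD5, a receptor needed for eye and gut development, had the lowest ratio of the Wnt genes. Its 10 spots had a lowest, median and highest signal of 152, 177 and 209 with #1 siHOTAIR and of 176, 220 and 242 with siGFP. The ranges overlapped, but all 10 spots were lower in #1 siHOTAIR cells after scaling, with spot ratios from -0.60 to -0.10 (SD 0.17). The log2 ratio of the probe was -0.32 ± 0.07. FZD7, known in stem cells and in epithelial tumours, gave 752 and 758 against 879 and 847, lower at both spots without overlap, with a log2 ratio of -0.24 ± 0.08. LRP5, the co-receptor known from bone mass disorders, gave 365 and 367 against 412 and 402, a log2 ratio of -0.20 ± 0.09. FZD6, a receptor of planar cell polarity, was read from 1 spot at 53.6 and 59.8, a log2 ratio of -0.21 ± 0.28 that does not exceed its measurement error. FZD3, a receptor of axon guidance, had spots of 196 and 185 against 202 and 172 and a log2 ratio of -0.02 ± 0.11. FZD4, the norrin receptor of retinal vessels, had spots of 422 and 434 against 414 and 418 and a log2 ratio of -0.01 ± 0.09. The signs of these last ratios turn above 0 when the arrays are scaled to spike-in RNA (0.13 for FZD3 and 0.14 for FZD4). LRP5 and LRP6, which act side by side in canonical signalling, lay on opposite sides of 0.

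**Figure D3:**
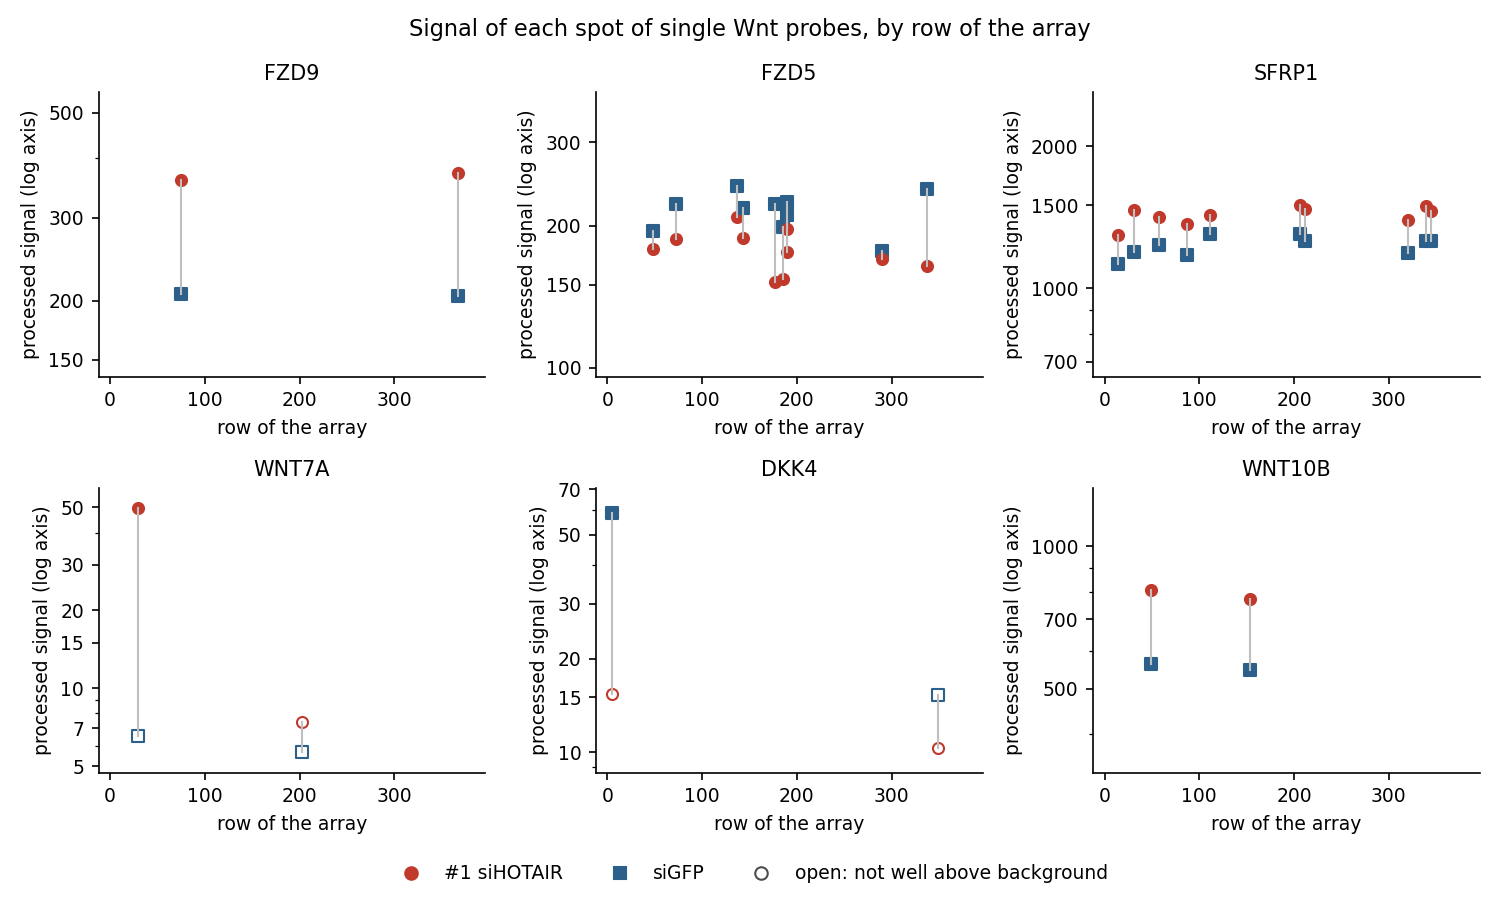
Processed signal (log axis) of each spot of 6 Wnt probes against its row on the array, with the same spot of the #1 siHOTAIR (circles) and siGFP (squares) arrays joined by a grey line, and open symbols where the spot was not well above background. Both spots of FZD9 and WNT10B and all 10 of SFRP1 are higher and all 10 of FZD5 lower in #1 siHOTAIR cells, while WNT7A and DKK4 were each above background at 1 of 2 spots on 1 array.

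Of the antagonists, SFRP1, a secreted Frizzled-like protein whose gene is often silenced in tumours, had 10 spots with a lowest, median and highest signal of 1297, 1445 and 1499 with #1 siHOTAIR and of 1129, 1248 and 1305 with siGFP. All 10 spots were higher in #1 siHOTAIR cells, and the ranges overlapped by a narrow margin at their ends. The spot ratios ran from 0.09 to 0.25 (SD 0.04) around a log2 ratio of 0.17 ± 0.03, which is 1.12-fold, and 33.2% of named genes had a ratio at least as high. The ratio of SFRP1 was thus repeatable within the arrays and small beside the spread of other genes. DKK3, a DKK relative that does not bind LRP5 or LRP6 as the others do, had spots of 78.9 and 75.8 against 80.3 and 68.8 and a log2 ratio of 0.01 ± 0.20, whose sign depends on the scaling. Its second probe was not well above background on either array, at 35.6 and 36.8.

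The ligand WNT7A and the antagonist DKK4, itself induced by Wnt signalling, were measured on 1 array only. WNT7A, known for limb patterning and for a restraining role in lung cancer lines, had a spot in row 30 of the array at 49.6 with #1 siHOTAIR and 6.52 with siGFP, and a spot in row 203 at 7.41 and 5.65. The first was well above background with #1 siHOTAIR and the second on neither, so the 2 spots of the same probe disagree. DKK4 had a spot in row 5 at 15.4 with #1 siHOTAIR and 58.8 with siGFP, and a spot in row 349 at 10.3 and 15.3. Only the first was above background, and only with siGFP. No fold is given, since the bound set by the lowest detectable signal was under 1 for both genes. Both single bright spots lay in rows 1 to 144, which hold 37.5% of the spots of the array and 42.7% of the 103 Wnt spots, and the part of position in these readings was not tested. When every spot of a probe had to be above background, 16 genes were measured on both arrays, 25 on neither and 0 on a single array. Among the 46 Wnt spots above background on both arrays, 20 lay in these rows, the largest difference was 0.82 on the log2 scale, and 0 differed by 2-fold.

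The further genes of the pathway were followed in 6 lists that share some members and hold 57 genes, of which 42 were measured on both arrays and 15 on neither. Of the 42, KREMEN2 was at least 2-fold higher and 0 were 2-fold lower, near the 1.4% and 1.48% of all named genes. Of the 42, 26 lay above 0 and 16 below, with a median log2 ratio of 0.08, against 6494 above, 5537 below and a median of 0.03 for all named genes. KREMEN2, a cell surface receptor for DKK proteins that helps to take LRP6 off the membrane, was read from 1 spot in row 85, at 1396 with #1 siHOTAIR and 610 with siGFP, a log2 ratio of 1.15 ± 0.10 or 2.22-fold. No second spot or probe was there to repeat it. KREMEN1, its paralogue, was at 0.01 ± 0.15. Among the other receptors and modulators, 9 of 12 measured on both arrays, RYK was at 4722 and 3319 (log2 ratio 0.46 ± 0.06) and SOSTDC1, a secreted antagonist of Wnt and BMP signals, at 11116 and 9989 (0.11 ± 0.07).

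Both genes of ligand secretion were measured and lay on opposite sides. PORCN, the acyltransferase that attaches the lipid to Wnt ligands, was at 2487 and 1883, a log2 ratio of 0.36 ± 0.06. WLS, which carries the ligands to the cell surface, was at 78.5 and 134 on 1 spot in row 141, a log2 ratio of -0.82 ± 0.28, while its second probe was not well above background on either array. Of the R-spondins, LGR receptors and ligases that remove Frizzled from the membrane, 4 of 9 were measured, with a median of 0.16. ZNRF3, such a ligase, was at 3937 and 3183 (0.26 ± 0.08), and LGR6 was at 385 and 325 (0.20 ± 0.15).

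In the cytoplasmic list all 12 genes were measured, with a median log2 ratio of 0.07. GSK3A, a kinase of the destruction complex, was at 8488 and 8388 (-0.03 ± 0.05) and DVL1, which relays the signal from Frizzled, at 7961 and 8001 (-0.05 ± 0.05). CTNNB1, which encodes β-catenin, was at 0.01 ± 0.03. BTRC, the ubiquitin ligase subunit that marks β-catenin for degradation, was the gene of this list farthest from 0, with spots of 393 and 408 against 206 and 225 and a log2 ratio of 0.85 ± 0.11. Of the nuclear effectors, 9 of 10 were measured, with a median of 0.04. PYGO2, a β-catenin cofactor, was at 2876 and 3550 (-0.35 ± 0.08), although its second probe gave 0.38 ± 0.28. LEF1 was at 1983 and 1930 (-0.01 ± 0.06).

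Of 20 genes taken as direct targets of the pathway, 10 were measured, 5 above 0 and 5 below, with a median of 0.03. MYC was at 8146 and 7528 (0.07 ± 0.02), AXIN2, a target in many cell types, at 250 and 220 (0.14 ± 0.15), and SP5 at 160 and 162 (-0.06 ± 0.21). A second measured probe of AXIN2 was at 105 and 103 (-0.01 ± 0.20), with its 2 spots on opposite sides of 0. JUN had spots of 480 and 486 against 883 and 856, lower at both spots, with a log2 ratio of -0.89 ± 0.08. CCND1, which encodes cyclin D1, was lower at 10 of 10 spots, with a log2 ratio of -0.47 ± 0.03. TCF7, a target and a nuclear effector, was higher at 10 of 10 spots, with a log2 ratio of 0.42 ± 0.05. The targets therefore lay on both sides of 0, with no median shift beyond that of all named genes. KREMEN1, CTNNB1, BTRC, AXIN2, SP5, JUN, CCND1 and TCF7 were singled out after their values were seen.

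**Figure D4:**
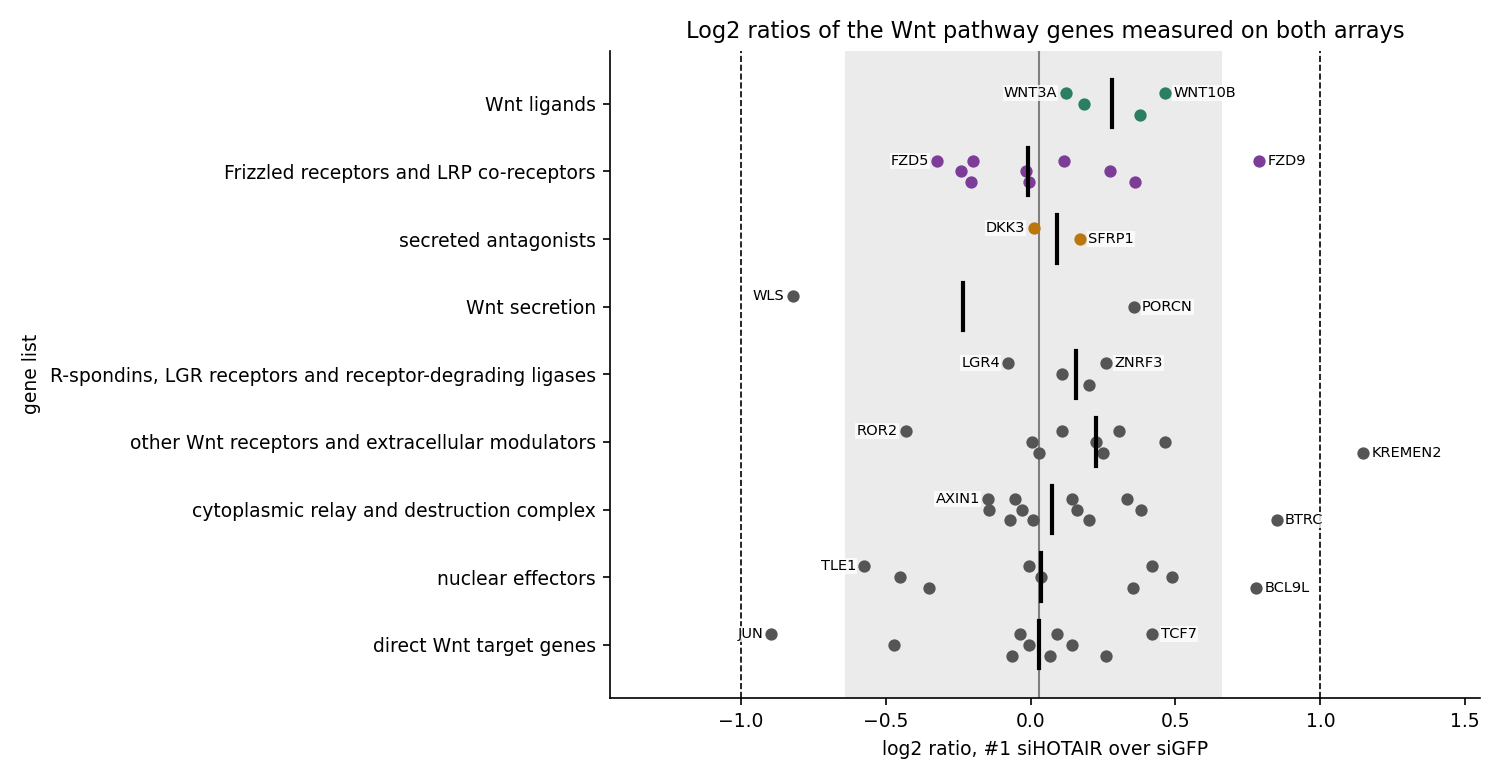
Log2 ratio (#1 siHOTAIR over siGFP) of each gene measured on both arrays, in the 3 classes of Wnt genes (coloured) and 6 further lists of the pathway (grey), with black bars at the medians and the lowest and highest gene of each list named. The grey band is the 5th to 95th percentile of all named genes (-0.64 to 0.66) and dashed lines mark 2-fold, which KREMEN2 alone passes.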

How the data were processed

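The authors labelled each RNA with Cy3, hybridized it to 1 array and read the scan with Feature Extraction 10.10.1.1, per the labels. The deposited processed signal is an intensity with the background subtracted and trends across the slide removed, not normalized between arrays. Both arrays lay on 1 slide. The deposited value table of the series equals the background-subtracted signal (largest difference 0).

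From there, log2 signals were centred on the 75th percentile of each array over spots that are not controls. Outlier spots were left out, and log2 values were averaged per probe. A gene with several probes was counted by the one of highest mean signal. Expected SDs came from probes with 10 spots, in 6 bins of signal. Accessions were matched to RefSeq names (GRCh38.p14), which named 58.5% of 42402 probes. On simulated data, only the averaging of spots and the 2-fold call were tested, with planted changes well beyond 2-fold. Scaling, background treatment, gene naming and the expected SDs were not part of that check. Tools were Python 3.11.15, pandas 2.3.3, numpy 2.4.6, matplotlib 3.10.9, R 4.3.3 and limma 3.58.1.

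All measured Wnt genes were named, and of each further list the genes at least 2-fold apart and the 2 of highest signal. The Wnt genes, lists and alternatives were chosen with earlier results of these data known. The alternatives were 4 other scalings, 2 other background treatments, the value table with a floor of 10, other filters and thresholds, the median of the probes (which could not change the value of a Wnt gene), and leaving out the first 144 rows. The number of arrays limits the precision, and the P-value of the authors' methods could not be computed with 1 array per condition. One of the cell type markers is not reported here.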

Additional observations from a re-analysis of the deposited data

How the results depend on the processing

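None of the 16 Wnt genes measured on both arrays reached 2-fold under the other scalings, the other background treatments or the value table, nor did any of the 13 that remained without the first rows, which hold every measured spot of WNT3A, FZD1 and LRP6. Taking the median of the probes could not change a value, since each had 1 measured probe. Scaling to spike-in RNA raised the median of all named genes from 0.03 to 0.17 and that of the Wnt genes to 0.26, and 12 of the 16 then lay above 0, while 9 lay above the median of all named genes as before. HOTAIR was at -0.76 with normexp and at -0.73 without background correction, the same direction with a smaller difference. At 1.5-fold, 1 Wnt gene was higher. With genes measured on 1 array taken at their own signal, 1 was higher (WNT7A) and 1 lower (DKK4). With no filter, 2 were higher (WNT7A and SFRP2) and 3 lower (WNT1, WNT9B and DKK4). The median was then 0.33 over 41 Wnt genes and 0.11 over all named genes. Of the 41, 23 were measured on neither array, against 6047 of 19061 named genes. Their probes had a median signal of 9.10 with #1 siHOTAIR and 7.0 with siGFP. The unfiltered median is therefore no shift of detected Wnt genes. The Wnt genes added by these looser filters all come from probes not well above background on 1 array or both. The share of all named genes 2-fold apart under these filters is not given here, so the counts are no result about the Wnt genes. Of the further pathway genes, 4 of 57 were 2-fold apart with no filter (APCDD1, ASCL2, KREMEN2 and RNF43). Of these, only KREMEN2 was well above background. At 1.5-fold there were 5 of 42 (BCL9L, BTRC, JUN, KREMEN2 and WLS). This is near the background, where 6.82% of named genes were higher and 5.95% lower. At 3-fold there were 0, and 0 of 32 without the first rows, where the spot of KREMEN2 lies.

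Of 17 genes (the 16 Wnt genes and KREMEN2), 14 kept their sign under the scalings, background treatments, value table and omission of the first rows that could be run for them, 8 alternatives for 13 genes and 7 for WNT3A, FZD1, LRP6 and KREMEN2. The exceptions were DKK3 (-0.02 to 0.15), FZD3 (-0.05 to 0.13) and FZD4 (-0.03 to 0.14). FZD9 ranged from 0.53 to 0.93 and WNT10B from 0.43 to 0.60. Signals near background limit WNT6, FZD6, WNT3A and DKK3, whose expected SDs were 0.20 to 0.28. No paired analysis was possible because each condition had 1 array, and no replicate could be left out.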

Other observations

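The probes of RSPO3, an R-spondin that strengthens Wnt signals through LGR receptors, disagreed. The probe measured on both arrays had 1 spot, at 284 with #1 siHOTAIR and 255 with siGFP, a log2 ratio of 0.11. The other probe was not well above background on either array, and its 10 spots disagreed. One spot, marked as an outlier by the scanner software and left out here, was at 190 with #1 siHOTAIR, well above background, and at 22.6 with siGFP. The other 9 were lower in #1 siHOTAIR cells, with a lowest, median and highest of 7.40, 8.19 and 11.2 against 14.5, 27.0 and 36.1, ranges that do not overlap only when the outlier spot is left out. TLE1, a corepressor that binds TCF factors, was likewise read by 2 probes on opposite sides of 0. The probe with 2 spots gave -0.57 ± 0.11. The probe with 1 spot gave 0.21 ± 0.28, which does not exceed its measurement error. These genes were chosen after their values were seen, and the cause of the disagreement was not tested.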
